A study of Mus musculus with 4 samples.

Results

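The simple epithelial keratins described here are Krt7, Krt8, Krt18, Krt19 and Krt23, chosen by name as 5 of the 31053 genes in the deposited tables. All 5 had UMIs (unique molecular identifiers, each counting 1 captured RNA molecule) in each of the 3 liver libraries analysed. The liver cells came from mice carrying Col1a2-CreERT2 and a tdTomato reporter, in which a collagen gene promoter drives an inducible recombinase, so that the red reporter is meant to mark collagen-producing cells. The reporter locus is R26RtdTomato in the design text, and the genotype labels number it differently in each of the 4 libraries. All mice shared the diet model: 8 weeks of a methionine- and choline-deficient feed with 45% fat, and 0.1% L-methionine in the water. The groups used are the positive fraction in recovery, the negative fraction in recovery and the negative fraction at injury, each with 1 library, and no group without the diet is among them. The positive fraction at injury was not analysed here. The sources used here do not give the separation of the fractions, the length of recovery, the number and age of the animals or the induction of the recombinase.

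Keratins build the intermediate filaments of epithelial cells, and each filament unit pairs a type I with a type II chain. Of the 5 genes, Krt7 and Krt8 encode type II chains and Krt18, Krt19 and Krt23 type I chains. Krt8 and Krt18 form the common pair of simple epithelia and are known as the main keratins of hepatocytes. Krt7 and Krt19 are added in bile ducts and in mesothelium, the sheet of cells that covers the liver, and Krt23 is known in mouse liver as a stress-inducible keratin of bile duct cells. On the mouse genome GRCm38 (GENCODE release M21), Krt7 lies at chr15:101411043-101430313 on the plus strand, Krt8 at chr15:101996698-102004482 on the minus strand and Krt18 at chr15:102028180-102032027 on the plus strand. Krt8 and Krt18 therefore face away from each other, with 23697 bases between their starts. Krt19 lies at chr11:100140810-100148665 and Krt23 at chr11:99477974-99493137, both on the minus strand.

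Promoter sequences are shown because Krt7, Krt8 and Krt18 differed together between mesothelial cells while Krt23 was read mostly in duct cells. RefSeq gave a promoter (build GRCm38.p6, 250 bases before to 50 after the start) for 4 of the 5 genes, all but Krt19. The RefSeq starts differ from the GENCODE gene bounds above, and the Krt7 window lies wholly inside the GENCODE gene. Capitals mark the letters of 4 motifs searched on both strands. The TATA box was searched as TATAAA. The E-box of Snail-type repressors was searched as CACCTG. The GC box of the factor Sp1 was searched as GGGCGG. The site of the AP-1 family was searched as TGANTCA.
Krt8, chr15:102004293-102004592, minus strand: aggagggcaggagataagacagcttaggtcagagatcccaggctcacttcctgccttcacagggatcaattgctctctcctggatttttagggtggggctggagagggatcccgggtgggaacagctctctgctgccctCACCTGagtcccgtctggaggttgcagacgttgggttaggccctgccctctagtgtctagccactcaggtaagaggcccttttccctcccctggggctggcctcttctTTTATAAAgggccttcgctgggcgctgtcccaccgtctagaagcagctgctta
Krt18, chr15:102027966-102028265, plus strand: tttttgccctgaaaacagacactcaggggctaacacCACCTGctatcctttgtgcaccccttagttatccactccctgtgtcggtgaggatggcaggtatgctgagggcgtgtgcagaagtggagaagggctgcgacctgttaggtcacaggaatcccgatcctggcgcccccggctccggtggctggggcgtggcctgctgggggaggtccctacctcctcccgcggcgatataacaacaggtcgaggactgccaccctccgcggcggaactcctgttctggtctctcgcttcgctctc
Krt7, chr15:101412153-101412452, plus strand: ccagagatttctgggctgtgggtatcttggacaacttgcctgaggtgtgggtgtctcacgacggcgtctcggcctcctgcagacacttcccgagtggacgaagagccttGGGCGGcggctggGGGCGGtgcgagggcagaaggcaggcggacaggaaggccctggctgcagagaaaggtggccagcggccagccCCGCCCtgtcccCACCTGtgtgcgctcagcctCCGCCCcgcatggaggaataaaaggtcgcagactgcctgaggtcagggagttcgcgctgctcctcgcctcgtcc
Krt23, chr11:99493071-99493370, minus strand: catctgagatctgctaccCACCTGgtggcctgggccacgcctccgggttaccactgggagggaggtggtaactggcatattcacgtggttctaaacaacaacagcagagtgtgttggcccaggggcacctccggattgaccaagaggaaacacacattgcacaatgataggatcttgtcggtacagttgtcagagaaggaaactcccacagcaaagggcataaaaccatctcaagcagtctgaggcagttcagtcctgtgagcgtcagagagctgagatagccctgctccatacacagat
CACCTG stands in all 4 of these promoters, against 20.2% of the 32851 promoters of the table. TATAAA stands in Krt8 alone, as 2 matches that overlap (13.6% of all promoters hold it). They lie across the RefSeq start itself, at -3 to 3 and -1 to 5, and not upstream of it. GGGCGG stands in Krt7 alone, 4 times counting both strands (35.7% of all). TGANTCA stands in none of the 4 (7.81% of all). A match is a run of letters and was not tested as a binding site.

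After filtering, 2380 cells of the positive recovery, 2949 of the negative recovery and 5443 of the negative injury library were used, with medians of 11232, 8670 and 6849 UMIs. The libraries shared 3 to 8 cell barcodes in each pair. Levels are counts per 1000000 UMIs of all cells in a class (CPM); a 3-prime count takes each molecule once, so levels were not divided by gene length. Brackets hold 95% intervals (exact Poisson for levels, exact Clopper-Pearson for shares), for counting error only. For log2 ratios 10 CPM was added to each level, and a ratio of at least 2-fold is called higher or lower. Since each group is 1 library, differences have no replicate check and were not tested. Cells were put in classes by genes other than keratins. Mesothelial cells had at least 5 UMIs of Upk3b and Nkain4 together with at least 1 of each, duct cells at least 3 of Epcam and 10 of Spp1, and Alb-high cells at least 1% of their UMIs from Alb, the albumin gene of hepatocytes.

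Class names were compared with marker lists. These hold the rule genes (Upk3b and Nkain4, Epcam and Spp1, Alb), so their sums partly follow from the selection of cells. Between duct and mesothelial cells of negative recovery, all 9 mesothelial markers were past 2-fold lower in duct cells and all 9 duct markers higher. In negative recovery the 9 mesothelial markers summed to 101.9 CPM in duct cells and 10730 CPM in mesothelial cells, and in positive recovery to 10660 CPM in mesothelial cells. The 9 duct markers summed to 24460 CPM in the negative recovery duct cells, against 82.6 CPM in the mesothelial cells of the same library, where Epcam, Cldn7 and Pkhd1 were at 0 UMIs. Markers of other types were present in both classes. The 9 fibroblast markers summed to 11700, 11060 and 11820 CPM in mesothelial cells of positive recovery, negative recovery and negative injury, most of it Dcn (decorin) at 9352, 8784 and 8948 CPM, and at injury exceeded the mesothelial list, at 6774 CPM. The 9 hepatocyte markers summed to 7367 CPM in negative recovery and 9262 CPM in negative injury duct cells. The part of these in the keratin levels was not tested. Endothelial cells, which should lack keratins, set the background. The 5 keratins summed to 34.6 CPM (25.1 to 46.4) in 138 endothelial cells of positive recovery, 13.9 CPM (12.3 to 15.7) in 2253 of negative recovery and 47.0 CPM (44.2 to 49.9) in 3418 of negative injury. Whole duct and mesothelial classes of at least 30 cells lay between 2330 and 7982 CPM.

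Keratin UMIs came from different cells in the 2 fractions. In the positive recovery library, 1167 mesothelial cells gave 92.5% (92.3 to 92.7) of the UMIs of the 5 genes. In the negative recovery library, 351 duct cells gave 75.5% (75.1 to 76.0) and 79 mesothelial cells 14.4% (14.0 to 14.8). In the negative injury library, 745 duct cells gave 64.8% (64.6 to 65.0), 219 cells that met both the duct and the Alb-high rule 16.8% (16.6 to 16.9), and 270 mesothelial cells 8.75% (8.61 to 8.89). The split depended on the gene. In negative recovery, the 351 duct cells gave 46.9% of Krt7 and 44.1% of Krt19, and the 79 mesothelial cells 44.7% and 47.6%. Of Krt8 the duct cells gave 84.0% and the mesothelial cells 5.25%, and of Krt18 83.4% and 6.36%. Of the 1348 Krt23 UMIs 87.9% were in duct cells and 0 in mesothelial cells.

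Across whole libraries, Krt7 and Krt19 were past 2-fold higher in the positive recovery library. Krt19 stood at 969 CPM in positive recovery and at 191 CPM in negative recovery, 5.07-fold (4.93 to 5.23) higher, and Krt7 at 349 and 87.2 CPM, 3.997-fold (3.82 to 4.18) higher. Krt23 stood at 2.55 CPM in positive and 49.6 CPM in negative recovery, 19.5-fold (15.5 to 24.7) lower. Krt8, at 274 against 474 CPM, and Krt18, at 322 against 487 CPM, were within 2-fold. Of 15195 genes compared, 5.94% were at least 2-fold higher and 6.85% lower, beside 2 higher and 1 lower of the 5 keratins. The cells behind these sums differ, since mesothelial markers summed to 7955 CPM in the positive and 655.9 CPM in the negative library, and duct markers to 270.5 and 5099 CPM. Fewer cells of a class and less RNA per cell cannot be told apart in such sums, so the classes were compared next.

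In the negative fraction, whole-library keratin was lower in recovery than at injury, and most of it was Krt8 and Krt18. Krt8 stood at 474 CPM in recovery and 1414 CPM at injury, 2.98-fold (2.93 to 3.04) lower, and Krt18 at 487 and 1285 CPM, 2.64-fold (2.59 to 2.69) lower. Krt7 at 87.2 against 159 CPM, Krt19 at 191 against 209 CPM and Krt23 at 49.6 against 70.1 CPM were within 2-fold. Of 15086 genes, 0.988% were higher and 2.19% lower. Hepatocyte markers stood at 1957 CPM in recovery and 6546 CPM at injury with 7 of 9 lower and 1 higher, and duct markers at 5099 and 8491 CPM with none of 9 past 2-fold. Sinusoidal endothelial markers stood at 12790 CPM in recovery and 6676 CPM at injury with 3 of 9 higher and 1 lower, and proliferation genes at 6.62 and 62.1 CPM with 3 of 6 lower. The part of these in the whole-library values was not tested.

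**Figure D1:**
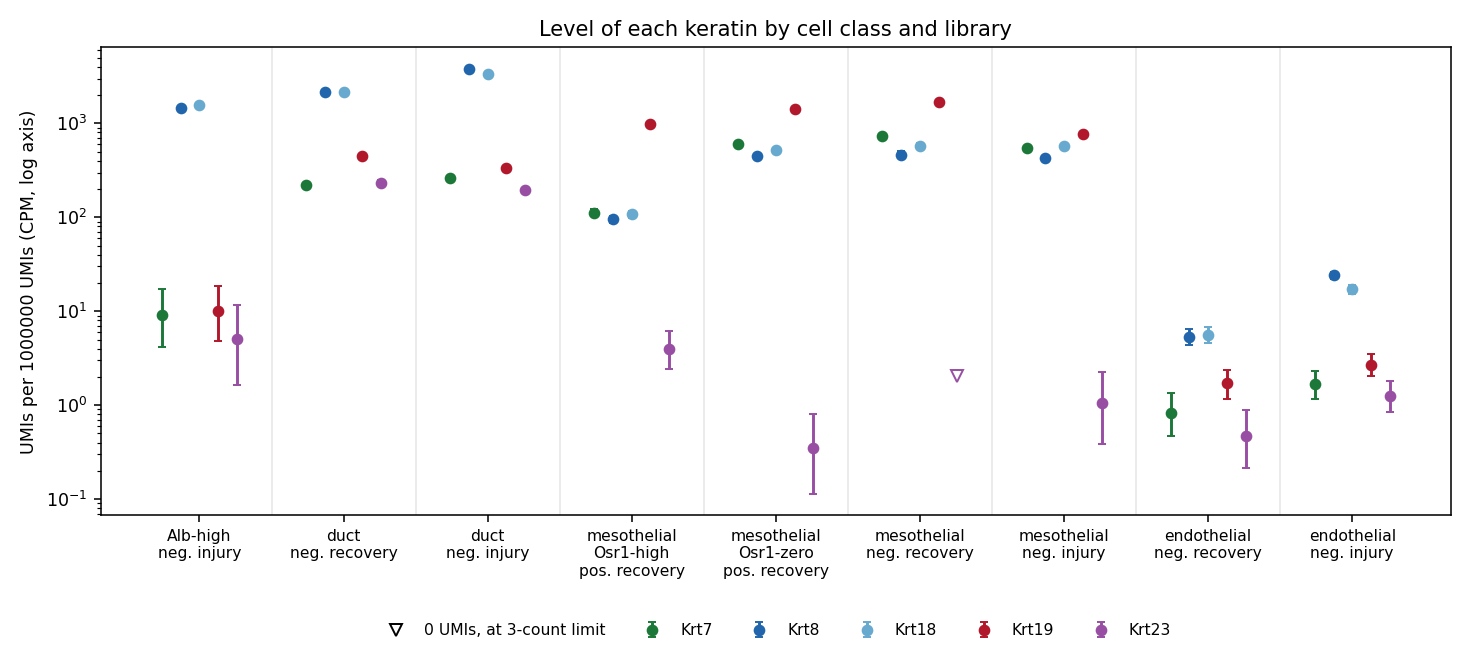
Level of each keratin in UMIs per 1000000 UMIs (log axis) by cell class and library. Points are sums over the cells of 1 library with 95% counting intervals, and the open triangle is a gene with 0 UMIs at its 3-count limit. Krt8 and Krt18 lead in Alb-high and duct cells, Krt19 leads in mesothelial cells, and Krt23 is at 233 and 195.5 CPM in the duct groups and at most at 5.04 CPM in the other groups shown.

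Krt8 and Krt18 led in duct cells and Krt19 in mesothelial cells, with Krt7 second in both recovery libraries and Krt18, at 580.5 against 546 CPM of Krt7, second at negative injury. Within the negative recovery library, which both classes share, Krt8 stood at 2133 CPM (2093 to 2173) in duct cells and 466 CPM (432 to 503) in mesothelial cells, 4.58-fold higher, and Krt18 at 2174 and 580.4 CPM, 3.75-fold higher. Krt7 stood at 219 CPM (206 to 232) in duct and 730 CPM (687 to 775) in mesothelial cells, 3.34-fold lower, and Krt19 at 451 and 1701 CPM, 3.77-fold lower. Krt23 stood at 233 CPM in duct cells and had 0 UMIs in mesothelial cells, which allows up to 2.07 CPM there (3 counts over the group), so it was at least 113-fold higher in duct cells when set against that limit (lower 95% counting bound of the ratio 91.65). All 5 keratins were thus past 2-fold, 3 higher and 2 lower, where 11.2% of 11547 genes were higher and 8.64% lower. Summed, the 5 genes differed less, at 5210 CPM in duct and 3478 CPM in mesothelial cells.

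The share of each keratin shows the same contrast on a scale that does not depend on the other RNA of the cell. Krt8 made up 40.9% and Krt18 41.7% of the keratin UMIs of negative recovery duct cells, with 8.66% for Krt19, 4.47% for Krt23 and 4.20% for Krt7. In mesothelial cells of that library Krt19 made up 48.9%, Krt7 21.0%, Krt18 16.7% and Krt8 13.4%. The ratio of type II to type I UMIs was 0.823 (0.803 to 0.843) in duct and 0.524 (0.494 to 0.556) in mesothelial cells, so it was lower in mesothelium. In negative injury duct cells it was 1.03 (1.02 to 1.05). How well each gene is captured was not measured, so the ratio compares groups and does not show an excess or balance of chains.

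**Figure D2:**
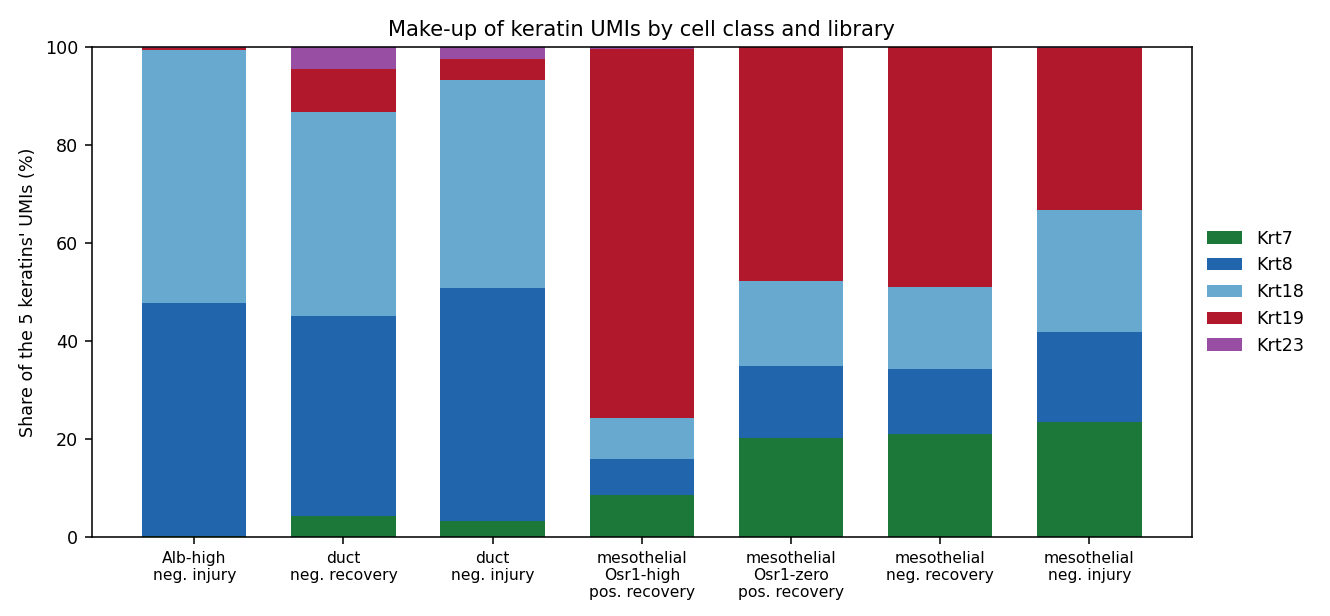
Share of each keratin in the UMIs of the 5 genes (%), stacked by cell class and library. Krt8 and Krt18 fill most of the bars of Alb-high and duct cells, while Krt19 fills 75.4% in Osr1-high, 47.7% in Osr1-zero and 33.2% in negative injury mesothelial cells.

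The shares of single cells with a keratin UMI differed between the classes too. With each cell thinned to 2000 UMIs, 93.1% (89.8 to 95.5) of 346 negative recovery duct cells had UMIs of both Krt8 and Krt18, against 35.4% (25.0 to 47.0) of 79 mesothelial cells and 0.0452% of 2215 endothelial cells. Krt19 was read in 50.3% of these duct and 91.1% of the mesothelial cells, against 0.451% of the endothelial cells. Krt23 was read in 33.0% (28.0 to 38.2) of the duct cells, in 0 of 79 mesothelial cells, which allows a share of up to 3.80%, and in 0.181% of the endothelial cells. Median depths before thinning were 11384 UMIs in duct, 15749 in mesothelial and 8516 in endothelial cells, and unthinned shares for Krt23 were 86.3% of duct and 0.399% of endothelial cells. Unthinned, Krt8 was read in 98.9% of duct and 93.7% of mesothelial cells, Krt18 in 99.15% and 100%, and Krt19 in 90.3% and 100%. A cell without a UMI after thinning thus need not lack the gene. Within the duct class the 10th and 90th percentile of cells stood at 912 and 3500 CPM for Krt8 and at 59.8 and 862 CPM for Krt19.

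The genes that keratins work with differed between the classes along with them, where 11.2% of all genes were higher in duct cells and 8.64% lower. Of 12 epithelial junction genes 10 were higher in duct cells (median log2 ratio 2.95, against 0.21 over all genes), among them Cldn7, a tight junction claudin, at 484 CPM in duct cells and 0 UMIs in mesothelial cells, and Cdh1, E-cadherin, at 342 against 0.689 CPM. Of 8 desmosome genes, whose junctions anchor keratin filaments, 4 were higher, led by Dsp, desmoplakin, at 181 against 2.75 CPM. Mesothelial cells carried other filaments beside keratins: Vim, vimentin, stood at 6.49 CPM in duct and 3449 CPM in mesothelial cells, and Prph, peripherin, at 0.984 and 1035 CPM. Of 11 epithelial transcription factors 7 were higher in duct cells, led by Sox9 at 662 against 4.13 CPM, and 2 were lower, among them Wt1 at 0.787 against 320.1 CPM. Of 6 plakins and linkers 1 was higher, Eppk1 (epiplakin, a keratin binder) at 64.3 against 0.689 CPM, and 3 were lower. Of 10 keratin turnover and binding genes none was higher and 3 were lower, led by Hspb1, a small heat shock protein, at 197.5 against 1102 CPM.

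Alb-high cells, 73 in negative injury, had Krt8 and Krt18 and little else. Krt8 stood at 1447 CPM (1373 to 1524) in Alb-high and 3793 CPM (3759 to 3828) in duct cells, 2.62-fold (2.49 to 2.76) lower, and Krt18 at 1580 CPM (1503 to 1660) and 3392 CPM (3360 to 3425), 2.15-fold (2.04 to 2.26) lower. Krt7 stood at 9.06 CPM against 263 CPM in duct cells, Krt19 at 10.1 against 338 CPM and Krt23 at 5.04 against 195.5 CPM, between 29.0-fold and 38.8-fold lower. All 5 were past 2-fold lower, where 21.9% of 12197 genes were lower, 6.41% were higher and the median log2 ratio of all genes was -0.48. With TMM scaling, which shifted all ratios up by 0.77, Krt8 and Krt18 came within 2-fold, at -0.62 and -0.33, while Krt7, Krt19 and Krt23 did not. Counting cells that met both rules in both classes brought all 5 within 2-fold, at -0.23 to -0.64, and the Alb-high group then held 300 cells in place of 73.

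In single Alb-high cells thinned to 2000 UMIs, Krt18 was read in 87.7% (76.3 to 94.9) and Krt8 in 71.9% (58.5 to 83.0) of 57 cells, against 3.96% and 3.93% of 3357 endothelial cells of the library. Krt7 was read in 3.51% (0.428 to 12.1), Krt19 in 1.75% (0.0444 to 9.39) and Krt23 in 3.51% (0.428 to 12.1), against 0.209%, 0.566% and 0.149% of endothelial cells, on 2, 1 and 2 cells. Median depths were 7837 UMIs in Alb-high and 6315 in endothelial cells, and 16 shallow Alb-high cells were left out. Unthinned, Krt18 was read in 94.5% and Krt8 in 87.7% of Alb-high cells. Krt18 exceeded Krt8 in Alb-high cells, at 1580 CPM (1503 to 1660) against 1447 CPM (1373 to 1524), with intervals that overlap. The type II to type I ratio of Alb-high cells was 0.913 (0.850 to 0.981). Krt8 exceeded Krt18 in the duct cells of this library. In negative recovery duct cells it did not, at 2133 against 2174 CPM and a ratio of 0.823. All 12 junction genes were lower in Alb-high than in duct cells, as were 9 of 11 epithelial transcription factors and 6 of 8 desmosome genes, while Vim was higher, at 261 against 16.6 CPM. Of 6 plakins and linkers 4 were lower, at log2 ratios of -1.39 to -1.03. Of 10 turnover and binding genes 2 were lower and 1 higher. Over all genes 21.9% were lower and 6.41% higher, and the turnover and binding counts are near these shares. The list counts are without TMM scaling, which shifted all ratios up by 0.77, and were not recomputed with it. The 9 hepatocyte markers, which include Alb of the class rule, summed to 76590 CPM in Alb-high and 9262 CPM in duct cells. All 9 were past 2-fold higher. The 219 cells that met both rules had a duct-like keratin profile, with Krt8 at 3639 CPM, Krt18 at 3247 CPM, Krt19 at 275 CPM, Krt7 at 270.1 CPM and Krt23 at 222 CPM.

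Osr1-high mesothelial cells of the positive recovery library had less Krt7, Krt8 and Krt18 than mesothelial cells without Osr1, while their Krt19 was within 2-fold. Osr1, a transcription factor of early mesoderm, was read at 3 or more UMIs in 237 mesothelial cells and at 0 in 802. Krt7 stood at 112 CPM (103 to 121) in Osr1-high and 607 CPM (594 to 620) in Osr1-zero cells, 5.44-fold (4.99 to 5.93) lower. Krt8 stood at 95.1 CPM (86.8 to 104) and 447 CPM (436 to 458), 4.70-fold (4.28 to 5.17) lower, and Krt18 at 107 CPM (98.4 to 117) and 522 CPM (511 to 534), 4.87-fold (4.46 to 5.33) lower. Krt19 stood at 975 CPM (948 to 1003) in Osr1-high and 1437 CPM (1417 to 1457) in Osr1-zero cells, 1.47-fold lower and within 2-fold. Krt23 had 20 UMIs in Osr1-high and 5 in Osr1-zero cells, 3.98 and 0.348 CPM, a ratio of 11.4 (4.17 to 39.0), beside 0 UMIs in endothelial cells of the library, which allows up to 2.36 CPM. With 10 CPM added it was within 2-fold, and its Osr1-zero level was not above that limit. Of 12377 genes 2.74% were at least 2-fold lower and 2.73% higher, and Krt7, Krt8 and Krt18 were the 45th, 63rd and 58th from the lowest.

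The make-up of keratin differed between the 2 groups along with its sum. Krt19 was 75.4% of keratin UMIs in Osr1-high and 47.7% in Osr1-zero cells, and the sum of the 5 genes was 1293 CPM (1262 to 1325) against 3014 CPM (2985 to 3042). The type II to type I ratio was 0.190 (0.178 to 0.203) in Osr1-high cells, the lowest of the classes of at least 30 cells with keratin above background, and 0.538 (0.527 to 0.549) in Osr1-zero cells. Thinned to 2000 UMIs, 46.8% (40.3 to 53.4) of 237 Osr1-high cells had Krt19 without Krt7, Krt8 or Krt18, against 10.3% (8.22 to 12.6) of 780 Osr1-zero cells and 2.92% (0.801 to 7.31) of 137 endothelial cells. Krt7 was read in 16.9% of Osr1-high, 60.6% of Osr1-zero and 0.730% of endothelial cells, Krt8 in 16.9%, 48.3% and 0.730%, and Krt18 in 13.9%, 54.7% and 0.730%. Krt19 was read in 73.0%, 86.5% and 3.65%. Median depths were 16805, 15468 and 9069.5 UMIs in these groups, and unthinned Krt7 was read in 46.8%, 91.3% and 7.25% of cells. The median Osr1-high cell had 0 CPM of Krt7 and 789 CPM of Krt19, and the median Osr1-zero cell 469 and 1250 CPM.

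**Figure D3:**
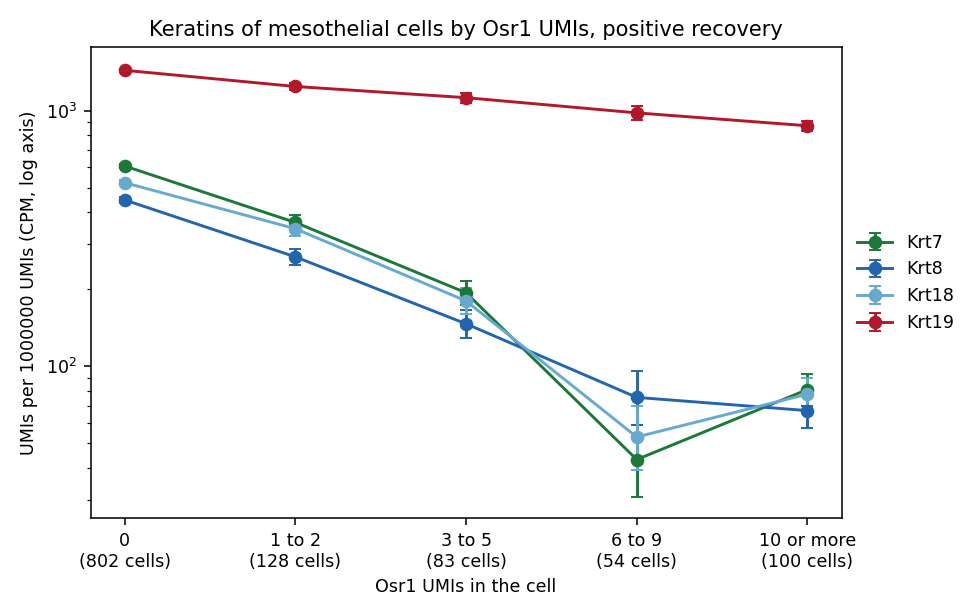
Level of 4 keratins (UMIs per 1000000 UMIs, log axis, with 95% counting intervals) in mesothelial cells of the positive recovery library by the number of Osr1 UMIs in the cell. Krt7, Krt8 and Krt18 are each lower in every band with Osr1 than in the band with 0, while Krt19 lies between 872 and 1437 CPM.

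The levels were lower in cells with more Osr1 UMIs, with the exception of Krt7 and Krt18 in the highest band. Krt7 stood at 607 CPM in cells with 0, 365 CPM with 1 to 2, 194 CPM with 3 to 5, 43.2 CPM with 6 to 9 and 81.1 CPM with 10 or more Osr1 UMIs. Krt8 stood at 447, 268, 147, 75.6 and 67.1 CPM over the same bands. Krt18 stood at 522, 345, 180.1, 52.9 and 77.8 CPM. Krt19 stood at 1437, 1242, 1123, 979 and 872 CPM. The 128 cells with 1 to 2 Osr1 UMIs thus lay between the groups compared for each of Krt7, Krt8, Krt18 and Krt19. Osr1-high cells were too few for this comparison in the other libraries, with 12 in negative injury and 0 in negative recovery. At negative injury Krt7 stood at 418 CPM (344 to 503) in those 12 and 548 CPM (527 to 570) in 227 Osr1-zero cells, Krt8 at 205 CPM (155 to 267) and 431 CPM (412 to 450), Krt18 at 362 and 597 CPM, and Krt19 at 888 and 758 CPM. The differences in Krt7, Krt8 and Krt18 were thus smaller there than in positive recovery, though on 12 cells only. The 31 injury cells with 1 to 2 Osr1 UMIs, at 582 CPM (526 to 641) of Krt7 and 503.5 CPM (452 to 559) of Krt8, were not below the Osr1-zero cells.

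Filament and junction partners differed between the same groups, where 2.74% of all genes were lower and 2.73% higher. Prph, a type III filament protein, stood at 24.9 CPM in Osr1-high and 604.5 CPM in Osr1-zero cells, a log2 ratio of -4.14, and Vim at 2014 and 3323 CPM, within 2-fold. Des, desmin of muscle and stellate cells, stood at 46.2 against 5.15 CPM, a log2 ratio of 1.89. Of 7 desmosome genes tested 3 were lower and none higher (median -0.70, against -0.01 over all genes): Dsg2, a desmosomal cadherin, at 16.1 against 67.4 CPM, Pkp2, plakophilin 2, at 11.7 against 46.7 CPM, and Perp at 11.3 against 33.6 CPM. Of 6 junction genes Cldn3 was higher, at 88.4 against 16.0 CPM, and F11r, a tight junction adhesion molecule, lower, at 148 against 346 CPM. Hspb1 was the 1 of 10 turnover and binding genes past 2-fold, at 3669 against 1156 CPM. Of 7 epithelial transcription factors Tfcp2l1, at 9.75 against 38.3 CPM, and Klf5, at 20.1 against 52.2 CPM, were lower, and none of the 6 plakins and linkers passed 2-fold. Another keratin, Krt14 of stratified epithelia, stood at 5.17 against 90.9 CPM.

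Markers of other cell types were read beside this contrast. The mesothelial list summed to 10150 CPM in Osr1-high and 10940 CPM in Osr1-zero cells with 1 of 9 lower, Msln at 456 against 1568 CPM, and Upk3b at 1383 against 1298 CPM. The fibroblast list summed to 15520 against 10530 CPM, most of it Dcn at 13260 against 8164 CPM. Of its 9 genes 4 were higher, among them Clec3b at 408 against 51.3 CPM and Cd34 at 738 against 259 CPM, and their part in the keratin values was not tested. The stellate list, which holds Des, summed to 491.5 against 280.5 CPM. Of its 9 genes Des was the 1 past 2-fold higher and 1 was lower, and Hhip was at 0 UMIs in Osr1-high cells. The duct list summed to 93.3 against 58.9 CPM, with Epcam, Cldn7 and Pkhd1 at 0 UMIs in Osr1-high cells.

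Between the fractions in recovery, the mesothelial keratins were all within 2-fold. Krt7 stood at 465 CPM in positive and 730 CPM in negative recovery mesothelial cells, Krt8 at 345 and 466 CPM, Krt18 at 407 and 580.4 CPM, and Krt19 at 1308 and 1701 CPM, with log2 ratios of -0.64 to -0.38. Krt23 had 26 UMIs, 1.18 CPM, in 1167 positive and 0 in 79 negative recovery cells, which allows up to 2.07 CPM. None of the 5 passed 2-fold, where 0.991% of 12716 genes were higher and 0.0865% lower. The share of Osr1-high cells differed between the libraries, 237 of 1167 mesothelial cells against 0 of 79. Among cells with 0 Osr1 UMIs, a comparison chosen after seeing the data, the log2 ratios were -0.28 for Krt7, -0.06 for Krt8, -0.15 for Krt18 and -0.25 for Krt19. Since Osr1-high cells of positive recovery were lower in Krt7, Krt8 and Krt18, leaving them out had to raise these levels. The part of Osr1-high cells in the difference between the fractions was not tested. Of 11995 genes in that comparison 0.142% were higher and 0.05% lower. Prph again went with Krt7, at 439 against 1035 CPM in all mesothelial cells and 604.5 against 1053 CPM in those without Osr1. Of the fixed lists over all mesothelial cells, Prph, Des at 26.8 against 6.20 CPM and Cldn3 at 37.6 against 11.7 CPM were the members past 2-fold.

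Between stages, mesothelial cells of the negative fraction differed in Krt19. It stood at 1701 CPM (1635 to 1770) in recovery and 774 CPM (751 to 797) at injury, 2.20-fold (2.09 to 2.31) higher. With TMM scaling, which shifted all ratios by -0.13, its log2 ratio was 0.995 in place of 1.13, just within 2-fold. Krt7 stood at 730 CPM in recovery and 546 CPM at injury, 1.34-fold (1.25 to 1.43) higher, while the counting intervals of the fold of Krt8 (0.997 to 1.18) and Krt18 (0.926 to 1.08) held 1. Krt23 had 0 UMIs in recovery and 6 at injury. Of the 5 keratins 1 was past 2-fold higher, where 2.02% of 10786 genes were higher and 2.11% lower. Krt19 was 48.9% of keratin UMIs in recovery and 33.2% at injury, and the type II to type I ratio was 0.524 against 0.720 (0.695 to 0.745). Among cells with 0 Osr1 UMIs Krt19 stood at 1715 against 758 CPM, where 2.07% of 10568 genes were higher and 2.13% lower. Thinned to 2000 UMIs, Krt19 was read in 91.1% (82.6 to 96.4) of 79 recovery and 70.8% (64.9 to 76.2) of 267 injury mesothelial cells, against 0.451% and 0.566% of endothelial cells. Unthinned, it was read in 100% of recovery and 98.15% of injury mesothelial cells.

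Other mesothelial genes differed along with Krt19, where 2.02% of all genes were higher and 2.11% lower. Prph stood at 1035 CPM in recovery and 382 CPM at injury, and Synm, synemin, at 19.3 and 4.37 CPM, both past 2-fold higher. Of the plakins, which tie filaments to junctions, none of 5 passed 2-fold, although their median log2 ratio was 0.72, against 0.08 over all genes. Ppl, periplakin, came nearest to it, at 175 against 82.8 CPM. Cldn3, at 11.7 against 35.6 CPM, was lower, as was Sqstm1, the p62 adaptor that gathers with keratins in hepatocyte inclusions, at 111 against 278 CPM. None of 6 desmosome genes and none of 7 epithelial transcription factors passed 2-fold. The mesothelial list summed to 10730 CPM in recovery and 6774 CPM at injury with 1 of 9 past 2-fold, and the sinusoidal endothelial list to 323 and 93.2 CPM with 1 of 9 past 2-fold, Kdr at 273 against 57.8 CPM, while Stab2 stood at 1.38 against 2.79 CPM. The part of these in the Krt19 value was not tested.

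Duct cells had less Krt8 and Krt18 in recovery than at injury. Krt8 stood at 2133 CPM (2093 to 2173) in recovery and 3793 CPM (3759 to 3828) at injury, 1.78-fold (1.74 to 1.82) lower, and Krt18 at 2174 CPM (2134 to 2215) and 3392 CPM (3360 to 3425), 1.56-fold (1.53 to 1.59) lower. Krt7 stood at 219 CPM in recovery and 263 CPM at injury, 1.20-fold lower. Krt19 at 451 against 338 CPM and Krt23 at 233 against 195.5 CPM were 1.33-fold and 1.19-fold higher. None of the 5 was past 2-fold, where 0.698% of 12467 genes were higher and 1.72% lower. Krt8 differed more than Krt18, and the type II to type I ratio was 0.823 (0.803 to 0.843) in recovery and 1.03 (1.02 to 1.05) at injury. The median duct cell had 1860 CPM of Krt8 in recovery and 3330 CPM at injury.

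**Figure D4:**
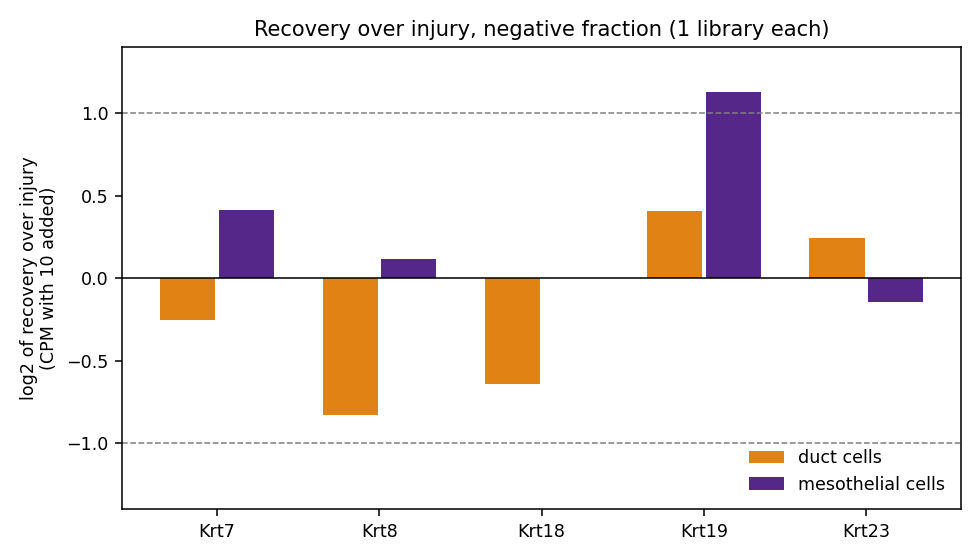
Log2 ratio of recovery over injury in the negative fraction for each keratin, in duct cells and in mesothelial cells (CPM with 10 added, 1 library each, dashed lines at 2-fold). Krt19 in mesothelial cells, at 1.13, is the 1 bar past a dashed line, and Krt8 in duct cells, at -0.83, is the lowest.

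Few partners differed in duct cells, as did few of all genes, with 0.698% higher and 1.72% lower. Cldn4, a claudin, was lower at 87.4 CPM in recovery and 266 CPM at injury, and was the 1 of 12 junction genes past 2-fold. None of 8 desmosome genes, 6 plakins and linkers, 11 epithelial transcription factors and 10 turnover and binding genes passed it. Among these Elf3, an epithelial transcription factor, stood at 58.0 against 112 CPM, Onecut1, a factor of duct formation, at 62.6 against 29.7 CPM and Sqstm1 at 182 against 287 CPM. Other markers moved too: 5 of 6 proliferation genes were lower, with a sum of 2.95 CPM in recovery and 94.9 CPM at injury, and the hepatocyte list summed to 7367 and 9262 CPM with 1 of 9 higher and 2 lower. An alternative added after seeing the data used only the 351 recovery and 675 injury duct cells with under 2 UMIs of the proliferation list. The log2 ratio of Krt8 was -0.88 there, against -0.83 over all 351 and 745 duct cells. This choice left out injury cells only, and the part of proliferation in the Krt8 value was not tested.

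The duct difference was not the same at every level of Alb. Alb stands at up to 1% of UMIs in duct cells by the class rule, and the bands were set after seeing the data. In cells under 0.2% Alb, 44 in recovery and 173 at injury, Krt8 stood at 3121 CPM (2990 to 3257) and 3414 CPM (3350 to 3478), and Krt18 at 2936 CPM (2808 to 3068) and 3237 CPM (3175 to 3300). Krt19 stood at 911 CPM (841 to 986) in recovery and 378 CPM (357 to 399.5) at injury in this band, a log2 ratio of 1.25, and Krt7 at 440 CPM (391.5 to 493) and 316.5 CPM (297 to 337). The sum of the 5 keratins had a log2 ratio of 0.03 there, against -0.61 over all duct cells. In cells of 0.2 to 0.5% Alb, 176 in recovery and 274 at injury, Krt8 stood at 1883 CPM (1829 to 1939) and 3741 CPM (3685 to 3798), and Krt19 at 402.5 CPM (378 to 428.5) and 345 CPM (328 to 362). In cells of 0.5 to 1% Alb, 131 and 298, Krt8 stood at 2100 CPM (2036 to 2164) and 4108 CPM (4049 to 4166). The difference in Krt8 was thus larger in the 2 upper bands than in the lowest. Msln stood at 25.0 CPM in recovery and 1.87 CPM at injury in cells under 0.2% Alb, while Upk3b stood at 2.94 and 0.936 CPM, and the part of mesothelial RNA in the Krt19 value was not tested.

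**Figure D5:**
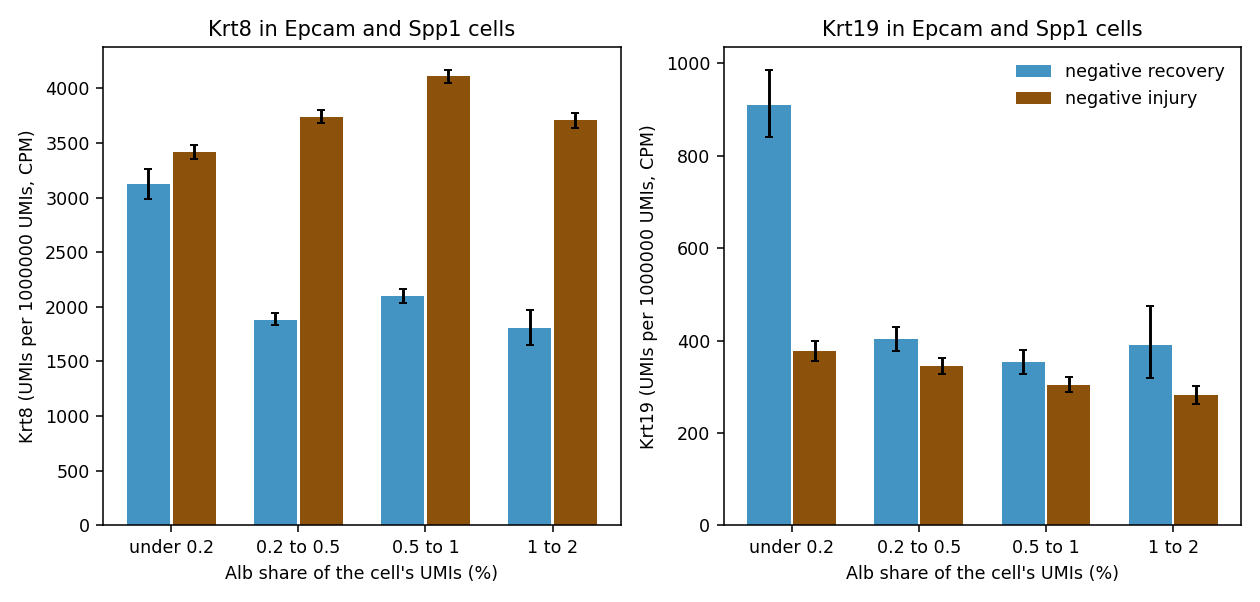
Krt8 (left) and Krt19 (right) in UMIs per 1000000 UMIs in cells that met the Epcam and Spp1 rule, by the share of Alb in the cell's UMIs, in negative recovery and negative injury (bars are sums over cells of 1 library, with 95% counting intervals). Cells at 1% and over also met the Alb-high rule. Under 0.2% Alb, Krt8 is 3121 CPM in recovery and 3414 CPM at injury, and Krt19 is 911 and 378 CPM.

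Over the 12 groups of at least 30 cells, which are the mesothelial, duct, Alb-high, endothelial, stellate and leukocyte classes by library, 2 pairs of keratins stood out. The correlation of log2 levels was 0.993 between Krt8 and Krt18 and 0.989 between Krt7 and Krt19, against 0.735 between Krt7 and Krt8 and 0.352 between Krt19 and Krt23. These are descriptions over groups that share 3 libraries. The endothelial, stellate and leukocyte groups lay near the keratin background, so the correlations partly reflect which classes hold keratin at all. Mesothelial cells were not split by Osr1 here. Between Osr1-high and Osr1-zero cells Krt7 differed 5.44-fold, with Krt8 and Krt18 near it, and Krt19 1.47-fold. Among 6908 genes, those most like Krt8 beside Krt18 were Slc39a4, a zinc importer (0.969), and Eps8l2 (0.967). For Krt18 they were Lsr, a tricellular junction receptor (0.978), and Eps8l2 (0.976). Arhgap44 and Epb41l4a (both 0.987) came nearest to Krt7 after Krt19, and Sema3c, a secreted semaphorin (0.987), and Arhgap44 (0.985) to Krt19 after Krt7. For Krt23 they were 1700011H14Rik (0.999), Tnfrsf19 and Fermt1 (both 0.998), each highest in negative recovery duct cells, at 179, 68.3 and 121 CPM. Krt23 itself stood at 233 and 195.5 CPM in the duct groups and at 5.04 CPM or less in the others. Its high correlations thus mark genes read mainly in duct cells and no closer likeness.

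The other 48 keratin genes of the tables added little. The 5 genes held 96.4% of all keratin UMIs in positive recovery, 97.9% in negative recovery and 99.0% in negative injury. Of the rest, Krt14 led in positive recovery at 46.7 CPM, against 2.35 CPM in negative recovery and 4.92 CPM in negative injury. Krt17, known from stressed and basal epithelia, led in the negative libraries, at 12.5 CPM in recovery and 9.54 CPM at injury. In negative recovery Krt17 stood at 56.9 CPM in duct cells with 0 UMIs in mesothelial cells, and Krt14 at 0.197 CPM in duct and 41.3 CPM in mesothelial cells.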

How the data were processed

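Non-parenchymal liver cells were prepared, per the labels' protocols, by EGTA perfusion, digestion (per mouse 14 mg Pronase, 3.7 U Collagenase), a Nycodenz gradient and the 10x Genomics 3-prime v2 kit. The authors deposited UMI counts per gene and barcode, written by software version 3.1.0 per the file headers. The submitters' processing notes name the builds mm10 and GRCh38 and featureCounts 1.6.2; the sources used here do not give the aligner or the cell calling rule. The tables hold no reporter gene, so the labels alone define the fractions.

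Cells were kept from 500 UMIs and 300 genes upward if mitochondrial UMIs did not exceed 20%. Doublets were called per library by Scrublet (scanpy 1.11.5) and removed, 108, 6 and 5 cells in positive recovery, negative recovery and negative injury. In both negative libraries the calling failed (0.203% and 0.092% called), and doublets remain. Cells meeting more than 1 of 6 class rules, the others being endothelial (Stab2, Clec4g and Ptprb at least 10 UMIs), stellate (Reln, Colec11 and Lrat at least 5) and leukocyte (Ptprc at least 2), entered no class, numbering 97, 52 and 304, and 633, 202 and 589 cells met none. Counts were summed per class, divided by the class total and multiplied to CPM. Genes with at least 20 UMIs over both groups were compared. TMM factors came from edgeR 4.0.16. The code was tested on simulated data. Each list's genes named are up to 4 with the largest log2 ratio; Msln, Upk3b, Dcn, Clec3b, Cd34, Kdr and Stab2, Krt14 and Krt17 levels by class were named after their values were seen. Genes most like a member were the 3 with the highest Pearson correlation among genes reaching 50 CPM in a group. The members, lists, class rules and motifs were chosen with earlier results of these data known.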

Additional observations from a re-analysis of the deposited data

Results flagged for a closer look

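Krt7 went in opposite directions in the 2 epithelial classes of the negative fraction. Its log2 ratio of recovery over injury was 0.41 in mesothelial cells and -0.25 in duct cells. The difference between these ratios was not tested, since each group is 1 library. Both values are within 2-fold, and in duct cells under 0.2% Alb the ratio was 0.46.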

How the results depend on the processing

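The sum of the 5 keratins was recomputed with other scaling, added counts, cell filters, doublet handling and class rules, one choice at a time. TMM scaling gave log2 ratios of 0.74 for positive over negative recovery over all cells (0.57 as reported), -1.38 for negative recovery over injury over all cells (-1.28), 0.44 in mesothelial cells between stages (0.58), -0.71 in duct cells between stages (-0.61), 0.31 for duct over mesothelial cells (0.58) and -0.62 for Alb-high over duct cells (-1.38); it shifted all genes by 0.17, -0.11, -0.13, -0.09, -0.28 and 0.77 in these comparisons. For recovery over injury over all cells, 50 CPM added gave -1.25 and removal of the highest-scoring cells -1.31. For Osr1-high over Osr1-zero cells (-1.21), 5 or more Osr1 UMIs gave -1.36, Osr1 at 200 CPM or more -1.32 and equal weight per cell -1.14. Equal weight per cell gave 0.64 in mesothelial and -0.64 in duct cells between stages. For Alb-high over duct cells it gave -1.32, no filter -1.45, the stricter duct rule -1.32, Alb at least 0.5% -1.08, Alb at least 2% -1.81 and entry into every class met -0.27. Alternatives chosen after seeing the data gave -0.22 for mesothelial cells with 0 Osr1 UMIs between fractions (-0.46), and in duct cells between stages -0.65 with few proliferation UMIs and 0.03 under 0.2% Alb. No called value changed sign.

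Of single keratins past 2-fold (19 values), 187 of 197 alternative values stayed past it and 197 had the same sign. The 10 that did not were Krt19 in mesothelial cells between stages under TMM (0.995, against 1.13), the 5 of Alb-high over duct cells when cells entered every class met (-0.23 to -0.64), Krt8 (-0.62) and Krt18 (-0.33) of that comparison under TMM, Krt18 at 0.5% Alb (-0.85), and Krt23 between the fractions with 50 CPM added (-0.92). Of those within 2-fold (21 values), 4 of 213 passed it, namely Krt19 in duct cells under 0.2% Alb (1.25) and Krt23 with 1 CPM added in 3 comparisons (1.89 for Osr1-high over Osr1-zero cells, 1.12 and -1.03 in mesothelial cells between fractions and between stages), where it had 0 to 26 UMIs a group. The cause was not tested. No paired analysis was possible because each group is 1 library and no result comes from a test. Depth limits Krt23 outside duct cells and keratins in classes of few cells.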
